A study of Homo sapiens with 8 samples.

Results

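The broad H3K4me3 domains of mock-treated HCT8 cells were the peaks of 4000 bp or more in the mock H3K4me3 list. There were 590 such domains among 23603 listed peaks. They were chosen on their width in the mock library alone, so their width, and the tag count that goes with it, are described here and not tested. HCT8 is a human ileocecal adenocarcinoma line with epithelial features. The cells had been incubated for 5 h with membrane vesicles (MVs) from *Escherichia coli* K-12 strain MC1061, with MVs from the *Vibrio cholerae* El Tor strain C6706, or with the MV buffer alone (mock treatment). All 3 groups were the same line without genetic change. H3K4me3 ChIP-seq and FAIRE-seq, which recovers open chromatin, were each done on 1 library per treatment. No difference between treatments therefore has a replicate check, and treatment and library cannot be told apart. The MV preparations hold many bacterial components, so no single agent defines a group.

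Trimethylation of histone H3 lysine 4 (H3K4me3) marks the promoters of active genes and is laid down by the SET1/MLL methyltransferases, which are drawn to unmethylated CpG-rich DNA. At most active genes the mark forms a narrow peak around the start site. At a small share of genes it spreads for several kilobases into the gene body, and such broad domains are known to mark genes that define a cell type, as well as some heavily transcribed housekeeping genes.

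The domains differed widely in base composition, which can be seen in the sequences themselves. The sequences below, from the GRCh37 genome (the same build as hg19), were chosen to show both ends of this range. Every CpG dinucleotide is in capitals. The first 4 are the 250 bases before the annotated start site of GATA6 (chr18:19749300-19749549, plus strand), KLF5 (chr13:73632893-73633142, plus strand), NRIP1 (chr21:16437322-16437571, minus strand) and ZFP36 (chr19:39897237-39897486, plus strand). The last is the middle of a broad domain that held no start site, in an intron of VTI1A (chr10:114287905-114288154, plus strand).
GATA6: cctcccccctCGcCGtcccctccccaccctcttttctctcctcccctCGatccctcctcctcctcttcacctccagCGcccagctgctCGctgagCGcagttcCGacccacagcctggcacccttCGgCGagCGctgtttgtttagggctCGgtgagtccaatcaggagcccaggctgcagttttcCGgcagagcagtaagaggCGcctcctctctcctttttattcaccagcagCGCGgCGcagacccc
KLF5: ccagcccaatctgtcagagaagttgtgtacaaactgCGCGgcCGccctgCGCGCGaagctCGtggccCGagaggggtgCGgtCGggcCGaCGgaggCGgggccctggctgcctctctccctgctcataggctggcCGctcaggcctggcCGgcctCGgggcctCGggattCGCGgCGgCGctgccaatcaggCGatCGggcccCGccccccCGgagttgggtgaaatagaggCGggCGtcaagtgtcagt
NRIP1: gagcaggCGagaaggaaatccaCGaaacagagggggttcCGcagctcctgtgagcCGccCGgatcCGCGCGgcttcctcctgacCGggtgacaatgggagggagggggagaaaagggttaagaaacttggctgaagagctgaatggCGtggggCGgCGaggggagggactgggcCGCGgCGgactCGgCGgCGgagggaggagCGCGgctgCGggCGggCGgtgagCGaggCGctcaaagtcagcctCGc
ZFP36: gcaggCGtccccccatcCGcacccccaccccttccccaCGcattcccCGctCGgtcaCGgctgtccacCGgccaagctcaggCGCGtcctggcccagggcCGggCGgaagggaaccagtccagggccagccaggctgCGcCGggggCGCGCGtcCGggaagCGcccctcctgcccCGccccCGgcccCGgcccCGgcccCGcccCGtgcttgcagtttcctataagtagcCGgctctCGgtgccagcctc
VTI1A intron: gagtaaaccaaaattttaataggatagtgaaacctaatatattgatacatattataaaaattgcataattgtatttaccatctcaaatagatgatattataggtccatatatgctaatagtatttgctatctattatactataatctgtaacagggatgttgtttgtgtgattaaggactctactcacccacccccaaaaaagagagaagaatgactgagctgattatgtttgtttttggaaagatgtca
The GATA6 stretch held 16 CpGs, that of KLF5 27, and those of NRIP1 and ZFP36 26 each, at a GC content of 64.4% to 76.4%. The intronic stretch held no CpG, and its GC content was 29.6%.

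The mock H3K4me3 library held 3463875 tags (sequenced fragments), against 10528314 with *E. coli* and 13011839 with *V. cholerae* MVs, and 38.6%, 53.9% and 56.1% of these tags lay in listed peaks. The mock list was thus the shallowest and the one with the smallest share of tags in peaks. Levels are given as normalized tag counts, which are tags per 10000000 tags of the library. Intervals in brackets are exact 95% intervals for counting error only. As a check of the cell type, 14 of 18 intestinal epithelial marker genes started in a mock H3K4me3 peak, against 1 of 12 blood cell markers and 0 of 13 annotated markers of other tissues.

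The domains were mostly promoters that extended into the gene. Their median width was 4624.5 bp, and 206 were 5000 bp or wider, 18 were 10000 bp or wider and the 4 widest measured 21485 bp or more. Together they covered 3.11 Mb, which was 8.92% of all bases in mock peaks, and held 10.4% of the tags in those peaks. Their tags per kb had a median of 127, close to the 133 of peaks of 2000 to under 4000 bp. The broad domains were therefore wider but not denser than ordinary promoter peaks. The 5 domains just inside the limit measured 4000 to 4006 bp and included HSPA8, a constitutive chaperone, with tag counts of 808.3 in mock cells, 1085.6 with *E. coli* and 887.7 with *V. cholerae* MVs. The 5 peaks just outside it measured 3986 to 3993 bp and held the starts of HMGB1 and USPL1, PRPF38B, SRP54, SMARCD2, and SOD2 and WTAP, with mock tag counts of 412.8 to 1099.9.

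A protein-coding gene started in 555 of the 590 domains (94.1%), against 91% of the peaks of 2000 to under 4000 bp. A pair of genes or more started in 173 domains (29.3%), against 18% of those narrower peaks. By bases, the median domain lay 58.6% in introns and 19.2% in exons of protein-coding genes. In 304 domains with 1 protein-coding gene whose outermost start site lay inside, the domain reached a median of 3452.5 bp into the gene and 1284 bp upstream. In the 3469 comparable peaks of 2000 to under 4000 bp these distances were 1754 and 824 bp. Measured from the start site nearest to the middle of the domain, the reach was 2542 bp downstream and 2105.5 bp upstream. The downstream bias was thus smaller by that measure. In the narrower peaks this reach was 1505 bp downstream and 1115 bp upstream. From the outermost start site, the reach was longer downstream in 88.5% of the 304 domains and 91.3% of the 3469 narrower peaks. The downstream bias was therefore not particular to the broad domains.

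**Figure D1:**
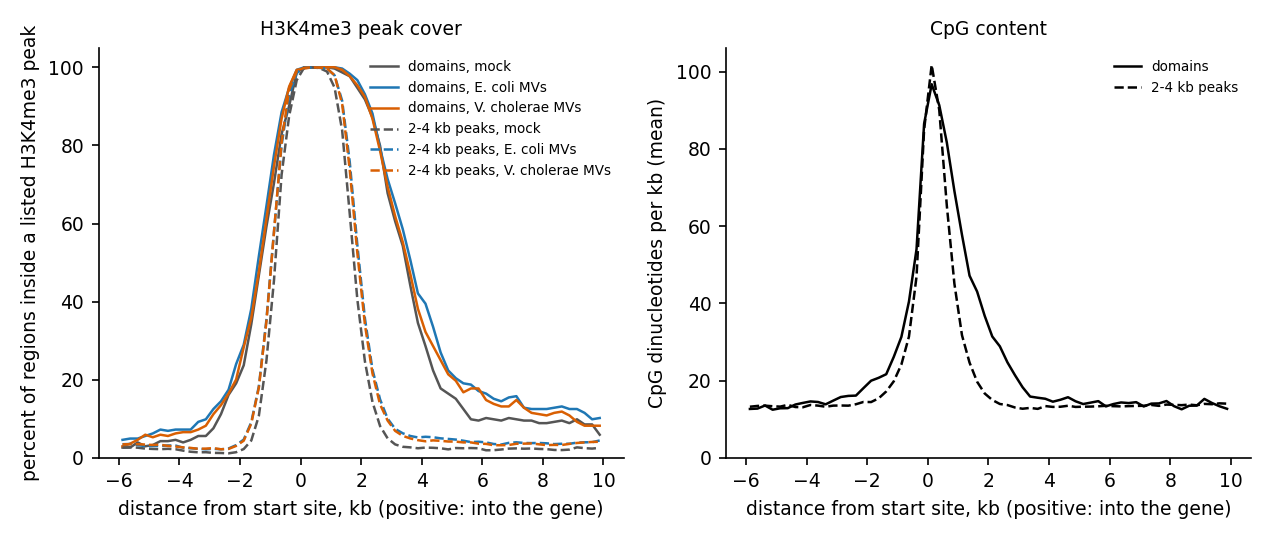
Percent of regions that lie inside a listed H3K4me3 peak (left) and mean CpG dinucleotides per kb (right), in bins of 250 bp by distance from the outermost start site, for the 304 broad domains (solid lines) and 3469 mock peaks of 2000 to under 4000 bp (dashed lines) with 1 protein-coding start. From 3000 to 3250 bp into the gene, 60.5% of the broad domains and 3.43% of the narrower peaks were inside a mock peak, against 65.1% and 61.8% of the broad domains inside an *E. coli* or *V. cholerae* MV peak.

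Measured from the outermost start site, the CpG-rich DNA reached further into the gene in the broad domains. The choice by width did not use CpG content. The profile was not taken from the start site nearest to the middle of the domain, so the part of the choice of start site was not tested. From 1000 to 1250 bp downstream of the start site the broad domains held a mean of 57.8 CpGs per kb, against 31.8 in the peaks of 2000 to under 4000 bp. At the start site itself the order was the opposite, with 96.8 and 102 CpGs per kb. Over the whole domain the median GC content was 51% and the median ratio of observed to expected CpGs 0.665, compared with 53.1% and 0.668 in the narrower class. CpG-dense sequence was taken as windows of 200 bp with at least 50% GC and an observed/expected ratio of at least 0.6. It filled a median of 2100 bp per domain and 1320 bp per narrower peak. A wider region has more room for it, and as a share of the region the medians were 44.7% and 49.8%.

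Among the 10 widest domains were MIRLET7BHG, the host gene of let-7 microRNAs (24576 bp), 3 domains over the HOXB cluster (23687, 21485 and 17403 bp), NRIP1, a nuclear receptor corepressor (18697 bp), and FOXA1, a pioneer factor of endoderm (17460 bp). They also included the VTI1A intron domain (17067 bp), NFIA, a nuclear factor I transcription factor (13852 bp), and GATA6, an endodermal GATA factor (13287 bp). At NRIP1 the tag counts were 2049.7, 2226.3 and 1851.35 in mock, *E. coli* MV and *V. cholerae* MV cells. At FOXA1 they were 2150.8, 2705.1 and 2592.3. FOXA1 had higher counts with both MVs when scaled to all tags of the library, whereas NRIP1 and NFIA (1743.7, 1972.8 and 1613.1) were lowest with *V. cholerae* MVs. Scaled to the tags in called peaks, FOXA1 lay below mock with both MVs.

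Gene lists for the tissue and treatment were set beside the background of 732 protein-coding genes that started in a broad domain among 10950 that started in any mock peak (6.68%). Of the intestinal and epithelial transcription factors, 11 of the 26 with a mock peak started in a broad domain (42.3%), among them CDX2, KLF5, GATA6, FOXA1, TCF7L2, GRHL2, OVOL2, TGIF1 and HES1. The others had narrower peaks only, among them HNF4A (2541 bp), SOX9 (3875 bp) and ELF3 (1481 bp). Of the intestinal epithelial markers used to check the cell type, only 2 of 14 with a mock peak started in a broad domain (14.3%), CDX2 and CLDN7. Of the HOX genes, which specify position along the body axis, 9 of 21 did (42.9%), namely HOXA9, HOXA10 and HOXB3 to HOXB9. These 9 clustered genes shared 4 domains, so they are not separate cases. The shares were 26.1% for AP-1 and immediate early genes (6 of 23), 25% for growth factor receptors and MAPK feedback genes (7 of 28), 24.1% each for the TGF-beta and BMP pathway and for proteasome and ribosome genes (7 of 29 each), and 23.1% for epithelial structure genes (6 of 26). Wnt pathway genes (5 of 22), cell cycle genes (5 of 29) and H3K4 methylation writers and erasers (4 of 28) followed. None of the 23 NF-kB and TNF response genes with a mock peak started in a broad domain. The median log2 ratios to mock in the domains of a list, for *E. coli* and *V. cholerae* MVs, were 0.43 and 0.36 for the intestinal and epithelial factors, 0.69 and 1.05 for the AP-1 and immediate early genes, 0.62 and 0.75 for the Wnt pathway, and 0.24 and 0.06 for proteasome and ribosome genes. The same medians over all broad domains were 0.38 and 0.38. All of these are scaled to all tags of the library. Scaling to the tags in called peaks shifts each by -0.48 for *E. coli* and -0.54 for *V. cholerae* MVs. The list medians rest on 12, 6, 5 and 7 domains, in the order given, and count overlapping MV peaks whole. At MYC, AXIN2 and ZFP36, whose MV peaks reached beyond the mock domain, the ratios by shared bases were lower, as given below. The median GC content of these lists' domains was 51.9%, 62.3%, 55% and 52.6%, beside 51% over all broad domains, and its part was not tested.

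Gene families picked out after the domains had been seen are described by their counts alone. Among hnRNP genes, which encode nuclear RNA-binding proteins, 10 of 20 with a mock peak started in a broad domain, including HNRNPA1, HNRNPA2B1 and HNRNPK. All 4 SPRY and SPRED genes found there (SPRY1, SPRY2, SPRY4 and SPRED1, of 6 with a peak) encode feedback inhibitors of MAPK signalling. Both GATA genes with a peak, GATA2 and GATA6, were in broad domains, as were 5 of 9 ARID genes and 13 of 72 ribosomal protein genes. By contrast, 10 of 344 ZNF zinc finger genes (2.91%) started in one. No SOX gene did, out of 5.

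Every broad mock domain overlapped a listed peak with each MV preparation, and the called width was similar. Nearly all peaks of 2000 to under 4000 bp did so too, 5970 of 5975 with *E. coli* and 5952 with *V. cholerae* MVs. Over all 23602 mock peaks these numbers were 20123 and 19163, so full overlap is not particular to the broad domains. With *E. coli* MVs 537 of the 590 domains had a called width of 4000 bp or more, and with *V. cholerae* MVs 527. The median called width was 5033 bp and 4871 bp, respectively. The MV lists held 1249 and 1236 peaks of 4000 bp or more, of which 526 and 512 overlapped a broad mock domain. Most of the remainder (720 in each list) lay over narrower mock peaks, whose widest had a median width of 3198.5 bp with *E. coli* and 3027.5 bp with *V. cholerae* MVs. The larger number of broad peaks with MVs came with deeper libraries, and the part of depth in it was not tested.

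Tag counts were somewhat higher with both MVs than in mock cells when scaled to all tags of the library. The median over the domains was 629.4 in mock cells, 850.1 with *E. coli* and 862.3 with *V. cholerae* MVs. The median log2 ratio was 0.38 for *E. coli* MVs against mock and 0.38 for *V. cholerae* MVs against mock, whereas in the peaks of 2000 to under 4000 bp the medians were 0.43 and 0.50. Scaled to the tags in called peaks the domains' medians became -0.10 and -0.16, so the direction of this general difference depended on the scaling. That scaling lowers every log2 ratio to mock by a constant, with shifts of -0.48 for *E. coli* and -0.54 for *V. cholerae* MVs. Any smaller positive ratio given above or below therefore lies under mock by that measure. The log2 ratio of *V. cholerae* MVs to *E. coli* MVs, which does not use the mock library, had a median of 0.01 and ran between quartiles of -0.12 and 0.14. In tags per kb the medians were 127, 166 and 173, and the median log2 ratios of width were 0.07 and 0.04.

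A difference of 1.5-fold or more was less common among the broad domains than among all mock peaks. Beside the peaks of 2000 to under 4000 bp, this did not hold for domains lower with *V. cholerae* MVs than in mock cells or than with *E. coli* MVs. With *E. coli* MVs 152 of the 590 domains (25.8%) were higher than in mock cells by at least 1.5-fold, against 39.7% of all mock peaks, and 1 was lower, against 9.58%. With *V. cholerae* MVs 199 domains (33.7%) were higher, against 45.5% of all peaks, and 22 were lower, against 14.4%. Because the mock width chose the domains, nothing is read from those counts. Between the MV preparations, 3 domains were higher by 1.5-fold with *V. cholerae* MVs, against 7.43% of all peaks, and 17 (2.88%) were lower, against 11.5%. Of the peaks of 2000 to under 4000 bp, 1.28% were higher and 2.44% lower in that comparison. The median broad domain held 218 mock tags and the median peak narrower than 1000 bp held 8, and the part of counting error in the wider spread was not tested. With tags scaled to those in called peaks, 23 domains were higher and 26 lower with *E. coli* MVs. These numbers were 41 and 81 with *V. cholerae* MVs.

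The GC content of a domain went with its ratio more closely than its width did. Across the 590 domains, Spearman's rank correlation with GC content was 0.78 for *E. coli* MVs against mock, 0.88 for *V. cholerae* MVs against mock and 0.81 for *V. cholerae* against *E. coli* MVs, whereas with width it was -0.03, -0.06 and -0.10. Spearman's rank correlation with the mock tag count, which is the denominator of the ratios to mock, was -0.40, -0.43 and -0.43. These points come from the same 3 libraries and neighbouring domains share sequence composition, so the values only describe them. In the 148 domains of lowest GC content (30.3% to 47%) the median log2 ratios to mock were 0.13 and -0.04 for *E. coli* and *V. cholerae* MVs. In the 148 of highest GC content (55.7% to 67.9%) they were 0.72 and 0.91. Peaks of 2000 to under 4000 bp in the same GC ranges had medians of 0.11 and -0.09 at the low end and 0.71 and 0.95 at the high end. In the same GC ranges the broad domains thus had medians close to those of ordinary promoter peaks. The part of GC content in each ratio given here was not tested.

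**Figure D2:**
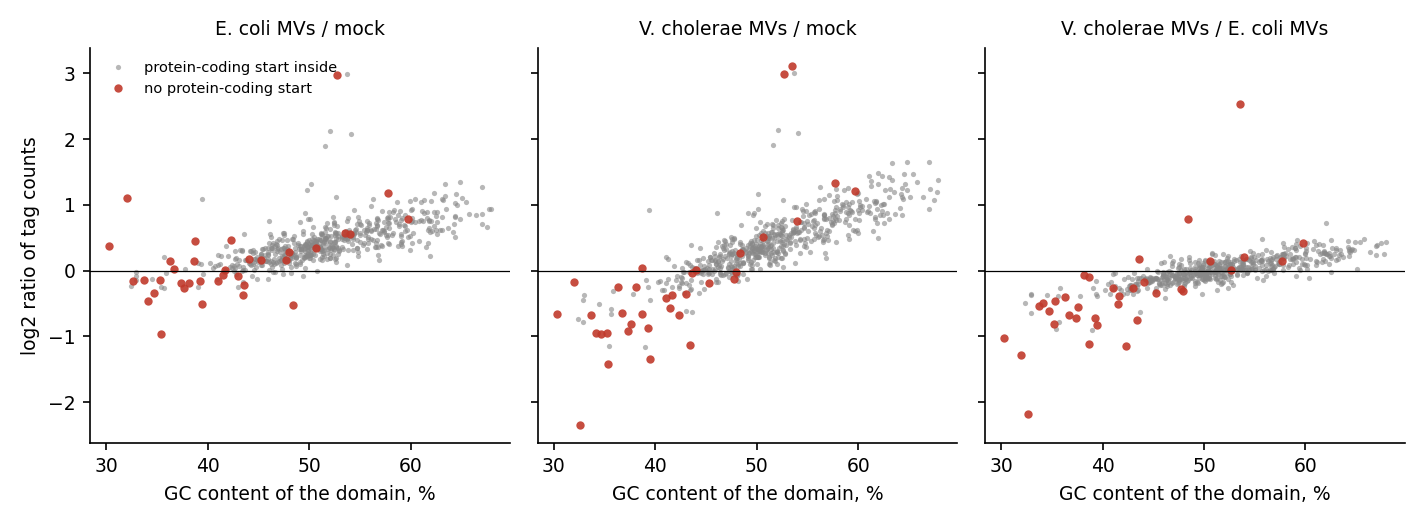
The log2 ratio of normalized tag counts in the 590 broad domains against GC content (percent) for each pair of libraries, with domains without a protein-coding start site in red. Ratios climb with GC content in all 3 panels (Spearman's rank correlation 0.78, 0.88 and 0.81), and the points near 2 and 3 in the first pair of panels include the HOXB domains, which share 1 MV peak.

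The highest ratios came from loci where several mock domains were listed as a single peak with MVs. On chr17:46643301-46725714 the *E. coli* MV list had 1 peak of 82413 bp with a tag count of 9730.9, and the *V. cholerae* MV list 1 of 79873 bp with 9816.4. In mock cells the same stretch held 6 peaks, 4 of them broad: those of HOXB3 to HOXB5, of HOXB6 to HOXB8, of HOXB7 and HOXB9, and one at the noncoding genes LINC02086 and LINC03057. The mock tag counts of the 6 summed to 7283.7. Taken as 1 region, the log2 ratio to mock was 0.42 and 0.43, close to the median of all domains, whereas the whole MV peak set against each mock domain gave 2.08 to 3.0. Likewise, with *V. cholerae* MVs the MIRLET7BHG domain was joined with its neighbour at PRR34 into 1 peak of 36644 bp with a tag count of 4398.3. The joined log2 ratio there was 0.47, while the neighbour alone stood at 508.1 in mock cells, 758.0 with *E. coli* MVs and 3.11 as a whole-peak log2 ratio with *V. cholerae* MVs. Such joining touched 50 domains with *E. coli* and 48 with *V. cholerae* MVs.

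Among the intestinal transcription factors, the counts at CDX2, a master regulator of intestinal identity, were 730.4 in mock cells, 1447.5 with *E. coli* and 1536.3 with *V. cholerae* MVs. Its MV peaks of 11714 and 12625 bp joined 3 mock peaks, whose summed mock count of 793.9 gives log2 ratios of 0.87 and 0.95. GATA6 stood at 1631.1, 2314.7 and 2212.6, with an *E. coli* MV value that includes peaks reaching outside the mock domain: counted by shared bases its log2 ratio was -0.13 with *E. coli* and 0.42 with *V. cholerae* MVs. TCF7L2, the transcription factor of Wnt signalling, stood at 1278.9, 1620.4 and 1424.1, and TGIF1, a corepressor of TGF-beta signalling, at 1296.2, 1751.5 and 1621.6. HES1, a Notch target, stood at 542.7, 729.5 and 1012.9, and its *V. cholerae* MV peak of 12795 bp joined 3 mock peaks. The order of the MV preparations at these genes depended on how neighbouring sequence was counted. Counting by shared bases spreads the tags of an MV peak evenly over its length and keeps the mock count whole. It can therefore understate an MV count where the peak is denser inside the mock domain than outside. By shared bases the counts with *E. coli* and *V. cholerae* MVs were 903 and 889 at CDX2, 1493 and 2179 at GATA6, 1484 and 1602 at TGIF1, and 564 and 357 at HES1.

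KLF5, a zinc finger factor of intestinal crypts, carried 2 broad domains that differed in composition. The domain on chr13:73628911-73641362, which holds the start site whose upstream bases are shown above, had tag counts of 1914.0 in mock cells, 2021.2 with *E. coli* and 1674.6 with *V. cholerae* MVs. The second, on chr13:73643211-73650974, holds only the start of a shorter annotated transcript and had 762.2, 634.5 and 484.2. Against mock the second was lower with *V. cholerae* MVs by a log2 ratio of -0.65 [-0.86, -0.44], compared with -0.19 [-0.32, -0.07] for the first, and their GC contents were 35.6% and 41%.

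RND3, a small GTPase that loosens the actin cytoskeleton, showed a similar split between 2 adjacent domains. The domain with its outermost start sites (chr2:151339362-151344330, GC content 49.5%) had tag counts of 629.4, 822.5 and 841.5 in mock, *E. coli* MV and *V. cholerae* MV cells. The domain further into the gene (chr2:151331013-151338386, GC content 39%), which holds only the start of a shorter annotated transcript, had 511.0, 429.3 and 229.0. The log2 ratio of *V. cholerae* MVs to mock was 0.42 [0.21, 0.64] in the former and -1.16 [-1.43, -0.88] in the latter. The direction in the start site domain depended on the scaling: with tags scaled to those in called peaks the same ratios were -0.12 and -1.70, both below mock.

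Epithelial structure genes in broad domains were CLDN7, a tight junction claudin, ESRP1 and ESRP2, splicing regulators of epithelial cells, CTNND1, the catenin p120, PKP2, a desmosomal plakophilin, and CGN, the tight junction protein cingulin. ESRP2 had tag counts of 502.3, 783.6 and 958.4, and CLDN7 had 617.8, 824.4 and 1049.8. CTNND1 was the exception, with 444.6, 446.4 and 289.0, a log2 ratio to mock of -0.62 [-0.90, -0.34] with *V. cholerae* MVs and a GC content of 43.7%. TSPAN8, a tetraspanin of gut epithelium, was among the 5 lowest domains in the same ratio, with 340.7, 285.9 and 154.5 and a GC content of 35.4%.

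Values at Wnt pathway and cell cycle genes are first given with whole MV peaks counted. AXIN2, a negative feedback target of Wnt signalling, had 741.9, 1084.7 and 1247.3, and MYC had 744.8, 1147.4 and 1245.0. The MV peaks at these genes reached beyond the mock domain: by shared bases the log2 ratios to mock were 0.19 and 0.31 at AXIN2, and -0.11 and -0.16 at MYC. As that count can understate MV values, MYC is not read as below mock. CCND1, the cyclin of the G1 phase, had 661.1, 1116.0 and 1374.9, with a log2 ratio of 1.06 [0.86, 1.26] for *V. cholerae* MVs against mock. CDKN1B, a cyclin-dependent kinase inhibitor, had 1622.5, 2422.0 and 2118.1 over a domain of 11582 bp in mock cells, whose MV peaks also held a second mock peak, and its joined log2 ratios to mock were 0.29 and 0.09. RNF43, a ubiquitin ligase that removes Wnt receptors, had 955.6, 1099.9 and 639.4, but its *E. coli* MV peak of 15988 bp held 5 mock peaks. Its log2 ratio of *E. coli* MVs to mock was -0.69 by shared bases and -0.10 with neighbouring peaks joined.

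The domains of the AP-1 and immediate early genes had a median GC content of 62.3%, and those of the growth factor receptors and MAPK feedback genes 52.8%, beside 51% over all domains. DUSP4, a MAPK phosphatase, had tag counts of 565.8, 1242.4 and 1471.0, with log2 ratios to mock of 1.13 [0.92, 1.36] and 1.38 [1.17, 1.60]. Its relative DUSP6 had 857.4, 1234.8 and 1285.0. ZFP36, which promotes decay of inflammatory mRNAs and whose CpG-rich promoter is shown above, had 427.3, 720.9 and 1190.5. Its log2 ratio of *V. cholerae* to *E. coli* MVs, 0.72 [0.60, 0.85], was among the 3 past 1.5-fold in that direction, with *V. cholerae* MV peaks of 7820 bp that held a second mock peak. By shared bases its log2 ratios to mock were 0.33 and 0.50 in place of 0.75 and 1.48. SPRY4 had 487.9, 845.3 and 979.9 and SPRY2 981.6, 1250.0 and 1292.7. MCL1, an anti-apoptotic BCL2 relative, had 756.4, 882.4 and 798.5 at a GC content of 48.4%, and EREG, an EGF receptor ligand, had 756.4, 782.7 and 714.7 at 42.1%. The EREG peaks with MVs held a second mock peak, and by shared bases its log2 ratios to mock were -0.49 and -0.50. That count can understate MV values, so EREG is not read as below mock.

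In the TGF-beta and BMP pathway, the inhibitory SMADs had tag counts of 435.9, 816.8 and 1039.8 at SMAD7 and 360.9, 592.7 and 810.8 at SMAD6. The *V. cholerae* MV peaks at SMAD7 held a second mock peak. With neighbouring peaks joined its log2 ratios to mock were 0.74 and 0.81, and by shared bases 0.85 and 0.37 for *E. coli* and *V. cholerae* MVs. TGFBR2, the type II receptor, had 831.4, 929.9 and 906.9 over 8290 bp in mock cells, at a GC content of 43.1%. ID2, a BMP target that inhibits basic helix-loop-helix factors, had 308.9, 1144.5 and 1162.8. Its MV peaks of 9506 and 10089 bp joined 2 mock peaks, and the joined log2 ratios to mock were 0.62 and 0.64. Among the writers of the mark itself, SETD1B had 646.7, 1079.9 and 1225.0 over 9459 bp, and KMT2E had 1125.9, 1325.9 and 1252.7. Among the 7 domains of ribosomal and proteasome genes, mock tags per kb ran from 106 at PSMB3 to 267 at RPL4, beside a median of 127 over all domains. In tag counts RPL4 had 1180.8, 1137.9 and 932.2 and PSMB1 1068.2, 1261.4 and 1085.2, over domains of 4426 and 4217 bp.

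Apart from the joined loci and ID2, the highest log2 ratios of *V. cholerae* MVs to mock were those of TRIM8 (340.7, 862.4 and 1075.2), FASTK with TMUB1 (317.6, 765.6 and 992.9) and SAMD4A (170.3, 425.5 and 527.2). They reached 1.66, 1.64 and 1.63. By tags per kb SAMD4A was highest against mock with each MV, at log2 ratios of 1.19 and 1.53. These 3 domains had a GC content of 63.4% to 67%.

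The 35 domains without a protein-coding start site differed from the remainder in composition. Their median GC content was 41% and their median observed/expected CpG ratio 0.296, against 51.2% and 0.672 in the 555 domains with a start. CpG-dense sequence filled a median of 4.75% of them, against 45.3%. A noncoding gene started in 17 of them, among which were MALAT1, SNHG4, SNHG5, LINC-PINT and MIR222HG, and 18 held no start site of either kind. They were also less dense in mock cells, with a median of 71.5 tags per kb against 130. Some lay in introns of genes whose start was itself in a broad domain, as in RNF43, FAT1 and YAP1.

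Their tag counts were close to mock with *E. coli* and lower with *V. cholerae* MVs. The median log2 ratio was 0.01 for *E. coli* and -0.38 for *V. cholerae* MVs against mock, and -0.40 between the MV preparations. Peaks of 2000 to under 4000 bp without a protein-coding start had medians of 0.15, -0.20 and -0.20. Of the 22 domains lower by 1.5-fold with *V. cholerae* MVs than in mock cells, 7 held a protein-coding start and the others were among these 35. A domain in an intron of MLLT3 was the lowest, with tag counts of 1033.5 in mock cells, 922.3 with *E. coli* and 203.7 with *V. cholerae* MVs. The last of these gave a log2 ratio to mock of -2.34 [-2.58, -2.11]. The listed width was 12738 bp in mock cells and 5464 bp with *V. cholerae* MVs, and tags outside listed peaks are not in these counts. The VTI1A intron domain had 1945.8, 1770.5 and 1214.3, and kept a width of 18116 bp with *V. cholerae* MVs. The MALAT1 domain had 975.8, 872.9 and 729.3. An intergenic domain on chr13:23361621-23365830 had 282.9, 145.3 and 106.1 and was the 1 domain lower by 1.5-fold with *E. coli* MVs. A domain in DGKD (chr2:234328092-234332337) went the other way, at 216.5, 150.1 and 259.8. The GC content of the MLLT3, VTI1A and chr13 domains was 32.6%, 33.7% and 35.3%, and its part in these differences was not tested.

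FAIRE peaks were counted where their midpoint lay in a broad domain. In mock cells 51.9% [47.7%, 56.0%] of the domains held at least 1 FAIRE peak, against 17.3% of all mock H3K4me3 peaks and 34.5% of those of 2000 to under 4000 bp. With *E. coli* MVs the share was 95.8% [93.8%, 97.2%], against 48.1% of all peaks and 91.2% of those of 2000 to under 4000 bp. With *V. cholerae* MVs it was 87.6% [84.7%, 90.2%], against 39.7% and 78.5%. A wider region has more room for a FAIRE peak, so the number per length was also taken: 1.19, 2.27 and 2.28 FAIRE peaks per 10 kb of domain in mock, *E. coli* MV and *V. cholerae* MV cells, compared with 1.34, 3.47 and 3.11 in the peaks of 2000 to under 4000 bp. Per length, FAIRE peaks were therefore no more frequent in broad domains.

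**Figure D3:**
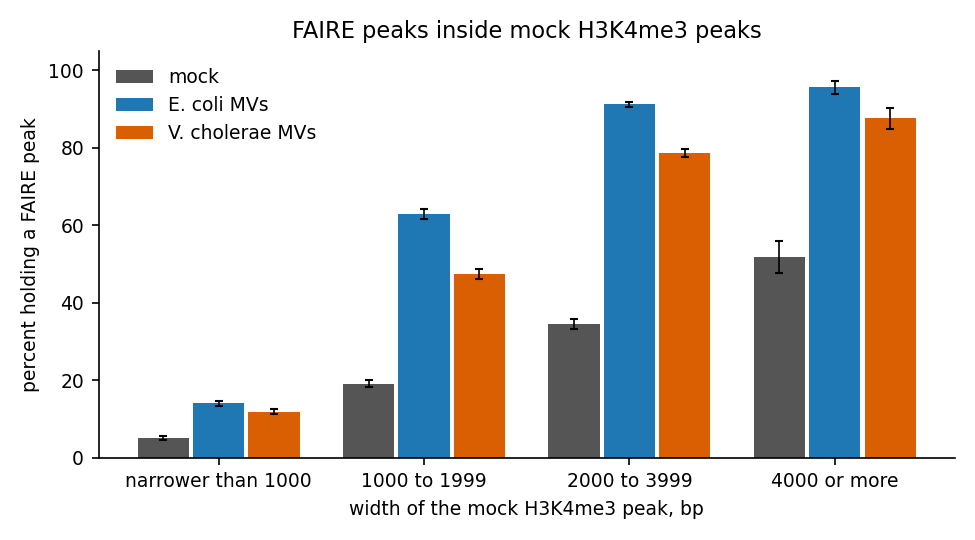
Percent of mock H3K4me3 peaks that held the midpoint of a FAIRE peak, by width of the mock peak (bp) and by FAIRE library, 1 per treatment, with exact 95% binomial intervals that cover counting error only. The share climbs with width in each library and is 51.9%, 95.8% and 87.6% in the broad domains.

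The FAIRE libraries differed in ways that bear on these shares. The mock library had 14474665 tags with 7.12% in peaks, the *E. coli* MV library 7888670 with 37.3% and the *V. cholerae* MV library 12077180 with 13.9%. Inside the domains the median FAIRE peak was 500 bp wide in mock cells, 1820 bp with *E. coli* and 1007 bp with *V. cholerae* MVs, and covered 7.92%, 49.3% and 29% of the domains' bases in all. Restricted to FAIRE peaks of at least 8-fold over input, the shares of domains were 1.69%, 67.3% and 13.9%. The order of the treatments held, while the values moved widely with this threshold.

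Of the 590 domains, 285 held a FAIRE peak in all 3 libraries, 226 with both MVs but not in mock cells, 36 with *E. coli* MVs alone and 5 with *V. cholerae* MVs alone, and 17 in none. As shares these patterns were 48.3%, 38.3%, 6.1%, 0.847% and 2.88% of the domains, beside 29.4%, 45.9%, 12.4%, 2.06% and 5.09% of the peaks of 2000 to under 4000 bp. Of the FAIRE peaks in the domains, a smaller share lay next to a start site than in narrower promoter peaks. Domains chosen by width have more room away from a start site, and the part of that room was not tested. In mock cells 58.8% of the FAIRE midpoints in the domains were within 500 bp of a protein-coding start, 75.2% with *E. coli* and 69.3% with *V. cholerae* MVs, against 71.6%, 87.2% and 83.2% in the peaks of 2000 to under 4000 bp and 6.4%, 10.5% and 7.81% outside mock H3K4me3 peaks. The letters GGGCGG, the core of the GC box, were found on either strand in the central 200 bp of 38.8%, 47.9% and 44.6% of them, against 42.4%, 54.9% and 52.5% in the narrower peaks and 7.34%, 13.2% and 9.23% outside. TGANTCA, the AP-1 site, was found in 3.5%, 3.11% and 3.81% of them, in 3.11%, 2.59% and 2.84% of those in the narrower peaks and in 6.16%, 6.88% and 8.09% of those outside.

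The domains with the most FAIRE peaks in mock cells were those at HOXB and MIRLET7BHG. The HOXB7 and HOXB9 domain held 4, 5 and 4 FAIRE peaks in mock, *E. coli* MV and *V. cholerae* MV cells, MIRLET7BHG held 4, 3 and 7, and the domain at LINC02086 and LINC03057 held 4, 3 and 2. Those with 3 in mock cells included NR2F2, an orphan nuclear receptor, HEXIM1, an inhibitor of transcription elongation, and ZC3H12A, an RNase that degrades inflammatory mRNAs. Some wide domains of low GC content held few: NRIP1 held 0, 1 and 0, the VTI1A intron domain 0, 0 and 1, and the MLLT3 intron domain none in any library. Of the 148 domains of lowest GC content, 37.2%, 85.8% and 77.7% held a FAIRE peak in mock, *E. coli* MV and *V. cholerae* MV cells. Among domains with FAIRE peaks in MV-treated cells only, those with the highest FAIRE tag counts, summed over both MV libraries, were at ING1 and CARS2 (656.6 with *E. coli* and 235.1 with *V. cholerae* MVs), WDR81 (557.8 and 206.2), HNRNPUL1 (508.3 and 195.4), PLEKHH3 (471.6 and 197.1) and TPT1 (418.3 and 126.7). The TPT1 domain, at a gene of translation and growth control, had almost equal H3K4me3 counts of 920.9, 962.2 and 893.0.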

How the data were processed

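H3K4me3 ChIP-seq and FAIRE-seq peak lists of 6 libraries were analysed, 1 per treatment and assay. Both input libraries were left out. The submitters' processing notes name Bowtie 1.1.2, SAMtools 1.3.1 and HOMER 4.7.2, with build hg19; the study's methods also name Bowtie 2 and MACS. Per the file headers, the authors called regions with HOMER in histone mode, stitching windows of 500 bp up to 1000 bp apart and requiring a fold (ratio) of 4 over input. The deposited normalized tag count is a signal per 10000000 tags of a library. The deposited tag counts per region (count), control tags and p-value columns came from the authors' peak caller. The p-values were not used, and other columns served as filters only.

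Whole tags were recovered as the normalized count times the library total (within 0.0721 of a whole number in every list). Mock peaks on chromosomes 1 to 22 and X of 4000 bp or more were the domains. Overlap was at least 1 bp, and overlapping peaks were counted whole. Gene starts came from GENCODE 44 lifted to GRCh37, with all protein-coding and lncRNA transcripts. Scripts ran in Python 3.11.15 with numpy 2.4.6, scipy 1.17.1 and pysam 0.24.0, and were tested on simulated data. With 1 library per group no test across treatments was made. Exact intervals (95%) cover counting error only, since reads without molecular identifiers are not independent molecules.

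Named were the 10 widest domains, 5 on each side of the width limit, the 5 highest and lowest in each ratio, those leading in FAIRE peaks, and the members of the gene lists. Not all of these are printed, and further genes were chosen after their values were seen. The domains and gene lists were chosen with earlier results of these data known. Sequences are the 250 bases before a start site, without transcribed bases. Some items are not reported here. Alternatives were another width, overlap, scaling, peak threshold, FAIRE rule and start site.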

Additional observations from a re-analysis of the deposited data

Results flagged for a closer look

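In 4 domains the H3K4me3 tag count was above mock with *E. coli* MVs and below mock with *V. cholerae* MVs, each by more than counting error; the difference between the preparations was not tested, with 1 library each. The log2 ratios to mock for *E. coli* and *V. cholerae* MVs were 0.20 and -0.58 at RNF43, 0.47 and -0.68 at LINC-PINT with LINC00513, 0.37 and -0.65 in the MIPOL1 domain on chr14:38018046-38023339, and 0.45 and -0.66 in the domain near FAT1 on chr4:187745410-187751058. With neighbouring peaks joined over the 3 lists, the *E. coli* MV ratios were -0.10, -0.01, -0.15 and -0.05, so the opposite direction was lost in all 4. Their GC content was 30.3% to 42.3%.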

How the results depend on the processing

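Of 166 values recomputed under 14 alternatives for 27 results, 99 stayed within the spread allowed, 62 moved and 5 changed sign; the cause was not tested except where the alternative itself changes which domains or peaks are counted. Scaled to the tags in called peaks, the median log2 tag count ratio was -0.10 for *E. coli* MVs against mock, -0.16 for *V. cholerae* MVs against mock and -0.052 between MVs, and per kb -0.16, -0.20 and -0.0148; 23 domains were then higher and 26 lower with *E. coli* MVs, and 41 and 81 with *V. cholerae* MVs. Counted by shared bases, the medians were 0.25 and 0.28, with 80 higher and 8 lower for *E. coli* MVs against mock and 129 higher for *V. cholerae* MVs. Counts by shared bases can understate MV values, as set out above. With a width of 3000 bp or more there were 2167 domains, with 612 higher and 12 lower for *E. coli* MVs against mock, 795 and 55 for *V. cholerae* MVs and 15 and 46 between MVs. Their median ratio between MVs was 0.0226, the width ratios 0.0989 and 0.0763, the reach 2437.5 bp downstream and 1144.5 bp upstream, the GC content 51.8%, the mock FAIRE share 43.8%, and FAIRE peaks per 10 kb 2.72 and 2.59 with *E. coli* and *V. cholerae* MVs. With 5000 bp or more there were 206 domains, with 59 higher and 0 lower for *E. coli* MVs against mock, 71 and 14 for *V. cholerae* MVs and 1 higher between MVs. Their median ratio between MVs was -0.0191, the reach 4509 and 1441 bp, the GC content 50.1%, the observed/expected CpG ratio 0.632, the share with more than 1 protein-coding gene 22.8%, the *E. coli* MV FAIRE share 91.7%, and FAIRE peaks per 10 kb 1.07, 1.92 and 2.06. Joining regions over the lists left 1 domain higher between MVs. With peaks of at least 8-fold over input, 2 domains were lower with *E. coli* MVs, 9 with *V. cholerae* MVs and 6 between MVs. With FAIRE peaks of at least 8-fold, the shares were 1.69%, 67.3% and 13.9% and the peaks per 10 kb 0.0322, 1.36 and 0.27. With the start of the gene record only, 25.6% of domains held more than 1 protein-coding gene. From the start nearest the middle, the reach was 2542 and 2105.5 bp. In 2 alternatives chosen after seeing the data, leaving out domains whose MV peaks held another mock peak gave a width ratio of 0.0547 for *E. coli* MVs, and 1 higher and 11 lower between MVs, and keeping only domains with a protein-coding start gave 0 lower for *E. coli* MVs, 7 lower for *V. cholerae* MVs, and 1 higher and 5 lower between MVs.

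No paired analysis was possible because the design holds a single library for every treatment and assay. The mock H3K4me3 library was the shallowest, so domains of low tag count in mock cells have the widest intervals.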
